A study of Mus musculus with 12 samples.

Results

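The genes described are the nuclear-encoded subunits of the oxidative phosphorylation complexes in mouse gastrocnemius muscle. They were chosen by name, as every gene whose symbol begins with Nduf followed by a, b, c, s or v and a digit, with Uqcr, with Cox4 to Cox8 or with Atp5, and Sdha to Sdhd. The pattern matched 86 of the 37748 genes in the table. Atp5l-ps1 was dropped as a pseudogene name, and Cox8c, Cox7b2 and Atp5l2 did not reach 10 counts in 3 of the 12 libraries. The remaining 82 genes comprised 37 of complex I, 4 of complex II, 8 of complex III, 16 of complex IV and 17 of complex V. All 82 entered the test, and 80 of them had at least 10 counts in all 12 libraries.

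Gastrocnemius RNA came from 12 mice aged 13 weeks, 3 in each of 4 groups, and poly(A) libraries were sequenced as single reads, 1 library per mouse. Control mice were ACTA1-MCM/+, which carry a tamoxifen (TMX)-inducible Cre driven by a skeletal muscle actin promoter. FLExD mice were FLExDUX4/+, which carry an unrecombined conditional DUX4 transgene and no Cre. The study describes low, leaky DUX4 expression in the FLExD line, and no detectable DUX4 protein in its unrecombined muscle. Neither control nor FLExD mice received TMX according to the labels, which describe the FLExD mice as having mild pathology. Mice of the moderate and severe models were both FLExDUX4/+;MCM/+, and their muscles were taken on day 9 after TMX. The moderate model received 1 injection of 5 mg/kg and the severe model 2 injections of 10 mg/kg on consecutive days. Recombination in these mice is mosaic, so a muscle holds recombined and unrecombined fibers. Since the models differ from the controls in carrying the DUX4 transgene and in having received TMX, the effects of both cannot be told apart.

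Oxidative phosphorylation couples the oxidation of NADH and succinate to ATP synthesis at the inner mitochondrial membrane. Complex I (NADH dehydrogenase) and complex II (succinate dehydrogenase) pass electrons to ubiquinone, complex III (the cytochrome bc1 complex) passes them to cytochrome c, complex IV (cytochrome c oxidase) reduces oxygen, and complex V (ATP synthase) uses the proton gradient made by complexes I, III and IV. Complexes I, III, IV and V are built from subunits of both genomes, whereas complex II is entirely nuclear-encoded. Several small complex IV subunits come as a pair of isoforms, with 1 made in the contractile fibers of heart and skeletal muscle and the other in most other tissues.

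Libraries held 23796902 to 29136403 counts, and 3 counts corresponded to 0.0676 to 0.155 CPM (counts scaled to the depth of the library). The trimmed mean of M-values (TMM) factors that set the CPM scale were 0.706 to 0.760 in control and FLExD mice, 1.06 to 1.13 in the moderate model and 1.70 to 1.87 in the severe model. The scale therefore mattered, and each direction below is given on the TMM scale with the exceptions named. Wfdc3, a gene that DUX4 induces in mouse muscle, had 1 to 8 counts in each mouse without TMX and 2005 to 4790 in each mouse of the models, as the labels require. Other cells moved with the groups: the summed CPM of 10 fast-fiber genes was 164500 to 220900 in control and 11200 to 20060 in severe muscle, all 7 measured macrophage and leukocyte markers were called higher in the severe model (summed CPM 694 or more against a control median of 62.7), and all 6 satellite cell and myoblast markers were called higher. In contrast, 5 of 5 endothelial markers (median -1.15, which turned to 0.15 with library size alone) and 3 of 3 erythroid markers (median -3.02) were called lower in the severe model. In whole muscle, fewer fibers and less RNA per fiber cannot be told apart, and the part of these cells in the results below was not tested.

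In control muscle the subunit genes were among the abundant transcripts, with a median of 205 TPM (transcript abundance corrected for length), which allows levels to be compared between genes. Of the 82 genes, 70 had a mean of at least 100 TPM. The highest was Atp5b, the catalytic beta subunit of ATP synthase, at 1122 ± 91.3 TPM (SD, n = 3), followed by Atp5a1, Cox8b and Cox6a2. The 5 genes under 15 TPM were Ndufa4l2, Cox4i2, Cox6b2, Atp5s and Atp5sl. Together the 82 genes made up 20020 to 23860 TPM in control, 22290 to 23920 in FLExD, 20670 to 24740 in moderate and 13950 to 18960 in severe muscle, so that the severe group alone lay below the range of the controls.

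No subunit gene was called different between FLExD and control muscle. In edgeR's quasi-likelihood test with Benjamini-Hochberg adjustment, 0 of 82 were called in either direction at an adjusted p under 0.05 and a log2 fold change of at least 0.5 in size, and 0 had an unadjusted p under 0.05. DESeq2 also called 0. Among all 16679 genes tested, 0.006% were called lower and 0% higher in this comparison. The subunits' median log2 fold change was 0.14, against -8e-04 over all genes, and 78 of 82 values lay above 0. The mice within each group differed more than the groups did. The median subunit, relative to the control mean on the log2 scale, stood at -0.06, 0.17 and -0.12 in control mice 1127, 1246 and 1349, and at 0.24, 0.23 and -0.09 in FLExD mice 1358, 1367 and 1378. The summed CPM of 8 slow-fiber genes was 1348, 2843 and 537 in the same control mice and 3161, 2895 and 741 in the same FLExD mice. In these 6 mice, the order of the subunit median was the order of the slow-fiber sum, with mouse 1358 highest and mouse 1349 lowest. The part of the fiber composition of the sampled muscle in the difference was not tested.

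In the severe model, 78 of the 82 subunit genes were called lower than in controls and 2 were called higher. The median log2 fold change was -1.53, a 2.89-fold lower level, against 0.08 over all genes. The background of this comparison was 27.9% of genes called lower and 32.9% called higher, so 95.1% of the subunits against 27.9% of all genes were called lower. The 2 genes without a call were Cox7a2l and Cox6b2, whose severe mice overlapped the controls on the TMM scale. In the moderate model, 43 genes were called lower and 1 higher, with a median log2 fold change of -0.50 against 0.04 over all genes, where 17% of all genes were called lower and 24.4% higher. At any fold, 55 subunits passed the adjusted p in the lower direction and 3 in the higher direction, against 4156 and 4845 of all 16679 genes tested. Between the models, 77 subunits were called lower in severe than in moderate muscle and 2 higher, with a median of -1.05 against 0.02 over all genes, where the background was 18.8% lower and 17.6% higher.

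These levels are relative to the other genes, and the choice of scale set how many calls there were. With library size alone, the median of all genes moved to 0.65 in moderate and 1.39 in severe muscle. The subunit median then became 0.10 in the moderate model, turning its direction, and -0.24 in the severe model. With it, 1 subunit was called lower in moderate muscle, against 4.51% of all genes, and 21 in severe muscle, against 6.42%. Measured from the median of all genes, the subunit median was 0.54 lower in the moderate model and 1.61 lower in the severe model with TMM, and -0.55 and -1.62 with library size alone. A change of count scale shifts all genes by about the same amount. The distance of the subunits from the median gene is therefore nearly fixed in advance, and its likeness across scales does not test it. Their distance from 0 did change with the scale. The plot of medians by scale shows both.

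**Figure D1:**
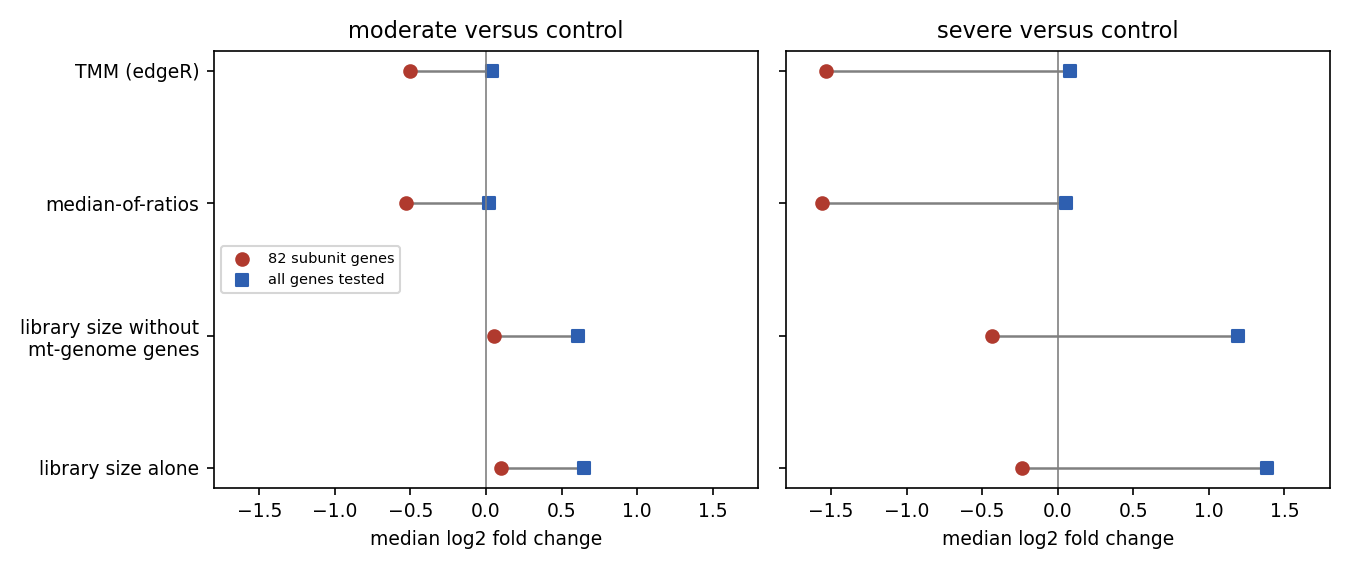
Median log2 fold change against control (horizontal axis) of the 82 subunit genes (circles) and of all genes tested (squares) under 4 ways of scaling the counts (rows), for the moderate (left) and severe model (right). The distance between circle and square in the severe model was -1.61 with TMM and -1.62 with library size alone, while the subunit median moved from -1.53 to -0.24. A change of count scale shifts all genes by about the same amount, so this distance is nearly fixed in advance. In the moderate model the subunit median changed sign, from -0.50 to 0.10.

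The 5 complexes did not move by the same amount. In the severe model the median log2 fold change was -1.67 for complex I, -1.86 for complex II, -1.48 for complex III, -1.32 for complex IV and -1.44 for complex V. Each of these kept its sign on every scale tried. With library size alone, however, complex V stood at -0.14 and complex IV at only -0.0247. Every member of complexes I (37 of 37), II (4 of 4), III (8 of 8) and V (17 of 17) was called lower, against 12 of 16 in complex IV. In the moderate model the medians were -0.57, -0.74, -0.42, -0.24 and -0.40 in the same order, with 25, 4, 4, 3 and 7 genes called lower. The 3 of 16 in complex IV (18.8%) were near the 17% of all genes called lower in this comparison. The moderate medians of complexes I, III, IV and V turned positive with library size alone, and that of complex II did not.

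**Figure D2:**
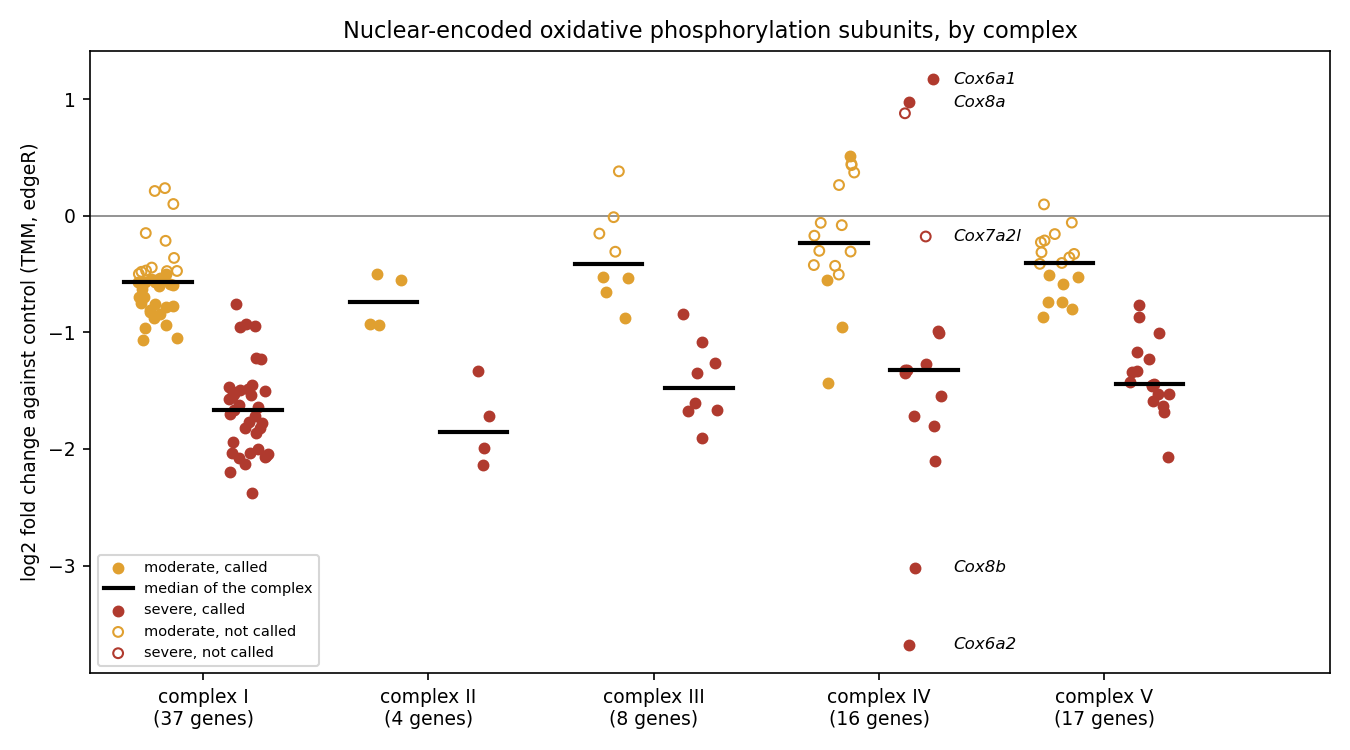
Log2 fold change against control (vertical axis, TMM scale) of each of the 82 genes in the moderate and severe models, by complex; filled points were called, open points were not, and black bars are medians of each complex. Complex IV holds the widest range in the severe model, from -3.68 for Cox6a2 to 1.17 for Cox6a1. With library size alone the moderate medians of complexes I, III, IV and V lay above 0.

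The complexes were also compared within single mice, where no scale between libraries enters. The median of complex I minus the median of all other subunits, set to the control mean, lay between -0.09 and 0.05 in control mice, between -0.21 and -0.18 in moderate mice and between -0.30 and -0.22 in severe mice. For complex II these ranges were -0.06 to 0.05 in control, -0.28 to -0.17 in moderate and -0.37 to -0.27 in severe mice. Complex IV stood on the other side, at -0.06 to 0.08 in control, 0.33 to 0.39 in moderate and 0.23 to 0.29 in severe mice. Complex V was at -0.03 to -0.01 in control, 0.08 to 0.13 in moderate and 0.10 to 0.19 in severe mice. For complexes I, II, IV and V no mouse of either model overlapped the controls, and FLExD mice lay between -0.10 and 0.08. For complex III the severe mice (0.04 to 0.10) overlapped the controls (-0.02 to 0.07). With 3 mice against 3, an exact two-sided permutation test cannot go below 0.1, so no p is given for these contrasts. As a share of the summed subunit TPM, complex I made up 32.1% to 33.7% in control and 30% to 30.6% in severe mice. Complex III made up 9.73% to 9.98% of the sum in control and 11.2% to 11.4% in severe mice, and complex V 29% to 29.2% and 31.4% to 31.7%. The share of complex IV was 23.8% to 25.1% in control and 23.3% to 24% in severe mice, where the ranges overlapped.

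**Figure D3:**
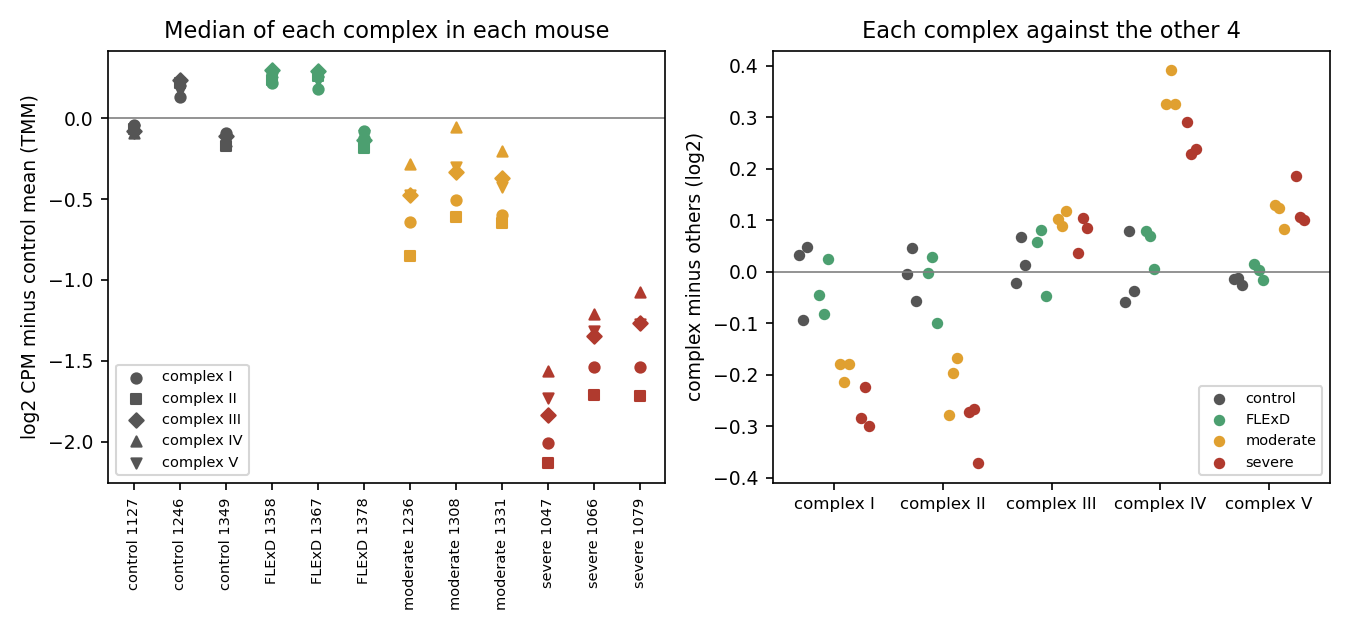
Left, median log2 CPM of each complex in each of the 12 mice relative to the control mean (TMM scale). Right, the median of each complex minus the median of all other subunits within a mouse (log2, control mean set to 0), 3 mice per group. Complexes I and II lie below 0 and complex IV above 0 in each mouse of both models, and in the left panel severe mouse 1047 is the lowest; with library size alone the moderate medians of complexes I, III, IV and V in the left panel lie above 0.

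Complex I carries 7 nuclear-encoded core subunits, which hold the flavin and the iron-sulfur clusters, and many accessory subunits. The 7 core genes had a median log2 fold change of -1.82 in the severe and -0.74 in the moderate model, and 7 of 7 were called lower in both. The other 30 had medians of -1.60 and -0.56, with 30 and 18 called lower. The core genes were grouped in this way after the values were seen, and the difference between the groups was not tested. Ndufs7, which encodes an iron-sulfur subunit near the quinone site, had the lowest log2 fold change of complex I in the severe model. Its CPM was 197, 217 and 181 in the controls, 95.2, 99.9 and 93.4 in the moderate model and 28.3, 42.6 and 43.6 in the severe model. The 3 groups did not overlap, and the log2 fold change was -2.38 ± 0.15 (SE, edgeR adjusted p = 4.6e-09) in the severe and -1.05 ± 0.14 (edgeR adjusted p = 2.8e-05) in the moderate model. Ndufv1, the NADH-binding flavoprotein, was at 255 to 336 CPM in control, 145 to 162 in moderate and 61.4 to 82.8 in severe mice, and changed by -1.94 ± 0.15 in the severe model. Ndufs1, the largest core subunit, changed by -1.82 ± 0.15.

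The severe log2 fold change nearest 0 in complex I belonged to Ndufb11, an accessory subunit of the membrane arm encoded on the X chromosome. Its CPM was 144, 159 and 144 in control, 176, 189 and 162 in moderate and 61.3, 92.6 and 111 in severe mice. It was called lower in the severe model (-0.75 ± 0.17, edgeR adjusted p = 0.0014), a direction that turned to 0.54 with library size alone, and it was not called in the moderate model (0.24, adjusted p = 0.26). Ndufb2, another accessory subunit, had the largest further drop between the models, by 1.52 on the log2 scale. Ndufa4, now known to be a subunit of complex IV in spite of its name, changed by -1.55 ± 0.14 in the severe model, and moving it and its paralog Ndufa4l2 to complex IV left the severe medians at -1.70 for complex I and -1.32 for complex IV. Ndufa4l2, a low-level paralog induced by hypoxia, was at 1.40 to 2.37 CPM in control and 0.924 to 1.27 CPM in severe mice. Its calls (-0.92 in severe, adjusted p = 0.011, and -0.88 in moderate, adjusted p = 0.023) were made at a level where the direction in severe turned to 0.37 with library size alone. The moderate call of Ndufa4l2 was lost without control mouse 1246 or 1349, or without moderate mouse 1236 or 1331.

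Complex II had the lowest median of all complexes in both models. Sdha, the flavoprotein that oxidizes succinate, was at 601, 693 and 541 CPM in control, 292, 325 and 343 in moderate and 120, 173 and 168 in severe mice. It was called lower in both models, at -0.94 ± 0.15 (edgeR adjusted p = 0.00012) and -1.99 ± 0.15 (edgeR adjusted p = 3.8e-08). Sdhb, the iron-sulfur subunit, was at 305, 410 and 284 CPM in control, 159, 197 and 170 in moderate and 59.3, 80.1 and 87.6 in severe mice, and its log2 fold changes were -0.93 and -2.14. The catalytic pair thus changed by about the same amount. The membrane anchors moved less, with Sdhc at -0.55 and -1.72 and Sdhd at -0.50 and -1.33 in the moderate and severe models. The moderate calls of Sdhc and Sdhd were lost without control mouse 1246 or moderate mouse 1236, and their moderate directions turned to 0.057 and 0.11 with library size alone. The difference between the catalytic and anchor subunits was not tested.

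Complex III ranged from Uqcrc1 to Uqcr10. Uqcrc1, a core protein of the matrix side, was at 361, 454 and 337 CPM in control, 194, 217 and 217 in moderate and 87.5, 111 and 109 in severe mice. It was called lower in both models (-0.87 ± 0.15 and -1.90 ± 0.15, edgeR adjusted p = 0.00022 and 6.2e-08). Uqcrfs1, the Rieske iron-sulfur protein, changed by -0.53 in moderate and -1.67 in severe muscle, and its moderate call was lost without control mouse 1246 or moderate mouse 1236. Uqcr10, a small accessory subunit, was at 148, 175 and 148 CPM in control, 201, 220 and 193 in moderate and 64.0, 94.0 and 105 in severe mice. All moderate mice thus lay above and all severe mice below the controls on this scale. The moderate value was not called (0.38 ± 0.16, adjusted p = 0.053), the severe one was (-0.84 ± 0.16, edgeR adjusted p = 0.00027), and the severe direction turned to 0.45 with library size alone. Between the models, Uqcr10 changed most in complex III (-1.22) and Uqcrc2, the second core protein, least (-0.95).

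Complex IV held both the largest falls and the only subunit genes that rose in the severe model. The SD of its severe log2 fold changes over genes was 1.34, against 0.31 to 0.38 in the other complexes. Cox5a, Cox5b, Cox6c, Cox7b, Cox7c and the general isoforms Cox4i1 and Cox6b1 had a median of -1.33, and 7 of 7 were called lower in the severe model. Cox5a, a structural subunit, was at 191, 244 and 195 CPM in control, 128, 151 and 151 in moderate and 46.4, 64.8 and 69.4 in severe mice. It changed by -0.55 and -1.803, and its moderate call was lost without control mouse 1246 or moderate mouse 1236. Cox4i1, the general form of the largest nuclear-encoded subunit, changed by -1.32 ± 0.14 in the severe model. Cox7b, a small subunit encoded on the X chromosome, changed by -1.27 ± 0.16.

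In the severe model the muscle isoforms of subunits 6a and 8 fell and their partners rose. Cox6a2, the heart and skeletal muscle form of subunit 6a, was at 378, 428 and 379 CPM in control, 499, 445 and 378 in FLExD, 124, 183 and 131 in moderate and 19.8, 34.7 and 37.9 in severe mice. The model groups did not overlap each other or the controls. The log2 fold change was -1.44 ± 0.22 (edgeR adjusted p = 9.4e-05) in moderate and -3.68 ± 0.24 (edgeR adjusted p = 1.4e-08) in severe muscle, the lowest of all 82 genes in both. Cox6a1, the form found in most tissues, was at 12.6, 18.2 and 12.7 CPM in control, 17.0, 17.4 and 14.2 in FLExD, 23.7, 21.5 and 16.9 in moderate and 34.5, 31.2 and 32.6 in severe mice. All severe mice lay above all others. Cox6a1 rose by 1.17 ± 0.15 (edgeR adjusted p = 7.3e-06) in the severe model. In the moderate model it passed the threshold at 0.51 ± 0.15 (edgeR adjusted p = 0.011), but the call was lost without control mouse 1127 or 1349 or without moderate mouse 1236 or 1308, and with DESeq2.

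Subunit 8 also has a muscle form and a general form. Cox8b, the muscle form, was at 248, 315 and 261 CPM in control, 356, 323 and 267 in FLExD, 136, 154 and 137 in moderate and 21.4, 40.2 and 39.98 in severe mice. Its log2 fold change was -0.95 ± 0.20 (edgeR adjusted p = 0.0013) in moderate and -3.02 ± 0.22 (edgeR adjusted p = 3.4e-08) in severe muscle. Cox8a, the general form, was at 15.5, 21.1 and 15.6 CPM in control, 22.3, 21.8 and 15.6 in FLExD, 25.2, 25.9 and 19.6 in moderate and 35.7, 30.4 and 36.7 in severe mice. Cox8a rose by 0.98 ± 0.16 (edgeR adjusted p = 8.7e-05) in the severe model and was not called in the moderate model (0.44, adjusted p = 0.034). The severe calls of Cox6a2, Cox8b, Cox6a1 and Cox8a kept their direction and their side of the threshold on every scale, with DESeq2, with limma on TPM and without any of the mice, except that Cox8a fell short of a log2 fold of 1. The moderate call of Cox8b was lost with library size alone (-0.34, adjusted p = 0.095).

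On the TPM scale, the isoforms went from far apart to level. Cox8b and Cox6a2 ranked 3 and 4 of the 82 genes in control muscle, at 746 and 733 TPM, and 28 and 49 in severe muscle, at 212 and 131 TPM. Cox8a and Cox6a1 ranked 76 and 77 in control muscle, at 32.7 and 27.9 TPM, and 40 and 41 in severe muscle, at 146 TPM each. The plot of isoform levels by mouse shows the approach from both sides.

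**Figure D4:**
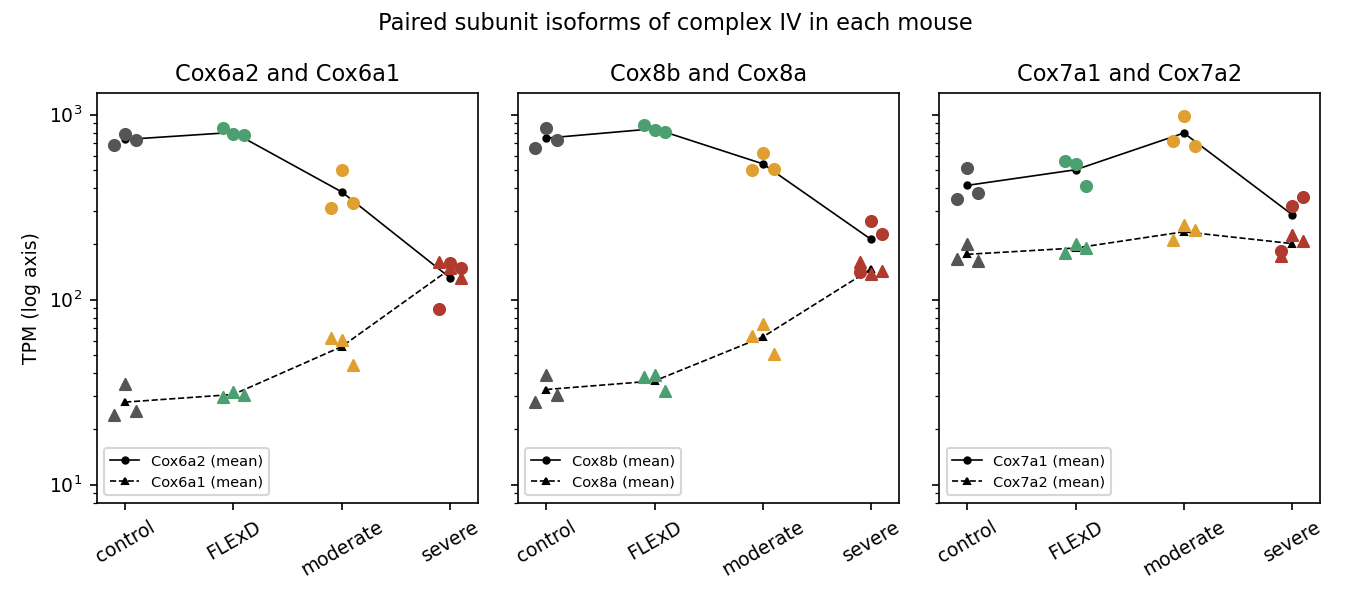
TPM (log axis) of the muscle isoform (circles, solid line through the group means) and the general isoform (triangles, dashed line) of subunits 6a, 8 and 7a in each of 3 mice per group. Cox6a2 falls from 733 to 131 and Cox6a1 rises from 27.9 to 146 mean TPM between control and severe muscle, while Cox7a1 and Cox7a2 stay within 1 order of magnitude.

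The ratio of 2 isoforms within a mouse needs no scale between libraries. Counts of Cox6a2 over Cox6a1 gave log2 ratios of 4.91, 4.55 and 4.89 in control, 4.87, 4.68 and 4.73 in FLExD, 2.38, 3.09 and 2.95 in moderate and -0.80, 0.16 and 0.22 in severe mice. The ratio was 3.94-fold lower in moderate and 30.4-fold lower in severe muscle than in controls, and no mouse of a model overlapped the controls. For Cox8b over Cox8a the log2 ratios were 3.9998, 3.90 and 4.06 in control, 3.9975, 3.89 and 4.10 in FLExD, 2.43, 2.57 and 2.80 in moderate and -0.74, 0.40 and 0.12 in severe mice. This ratio was 2.61-fold lower in moderate and 16.6-fold lower in severe muscle. FLExD mice differed from controls by -0.02 and 0.01 in these log2 ratios, less than the SD within either group. As a share of the pair's TPM, Cox6a2 made up 95.8% to 96.7% in control, 83.5% to 89.2% in moderate and 35.7% to 52.9% in severe mice. The share of Cox8b was 95.6% to 96% in control, 88.7% to 90.9% in moderate and 46.8% to 66.1% in severe mice. Severe mouse 1047 had the lowest share of the muscle form in both pairs and also the lowest fast-fiber sum of all 12 mice, at 11200 CPM.

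Subunit 7a behaved differently. Cox7a1, the muscle form, was at 133, 194 and 135 CPM in control, 228, 212 and 137 in FLExD, 196, 247 and 185 in moderate and 28.1, 48.6 and 63.8 in severe mice. It was called lower in the severe model (-1.72 ± 0.29, edgeR adjusted p = 0.00025), a call lost with library size alone (-0.43, adjusted p = 0.13). Its moderate value was not called with TMM (0.45, adjusted p = 0.21) and was called higher with library size alone (1.05, edgeR adjusted p = 0.0033). On the TPM scale Cox7a1 ranked 14 of 82 in control, 2 in moderate and 21 in severe muscle. Cox7a2, the general form, was at 98.6, 117 and 91.2 CPM in control, 89.7, 99.0 and 102 in moderate and 41.4, 53.7 and 57.5 in severe mice. It was called lower in the severe model on the TMM scale (-1.01 ± 0.13, edgeR adjusted p = 8.1e-06), a direction that turned to 0.29 with library size alone. The log2 ratio of Cox7a1 over Cox7a2 was 0.43 to 0.73 in control, 0.46 to 0.99 in FLExD, 0.86 to 1.32 in moderate and -0.56 to 0.15 in severe mice. Moderate mice lay above and severe mice below the controls, while FLExD and moderate mice overlapped. Of the 3 muscle forms, Cox7a1 was the only one whose ratio was not lower in the moderate model than in controls.

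**Figure D5:**
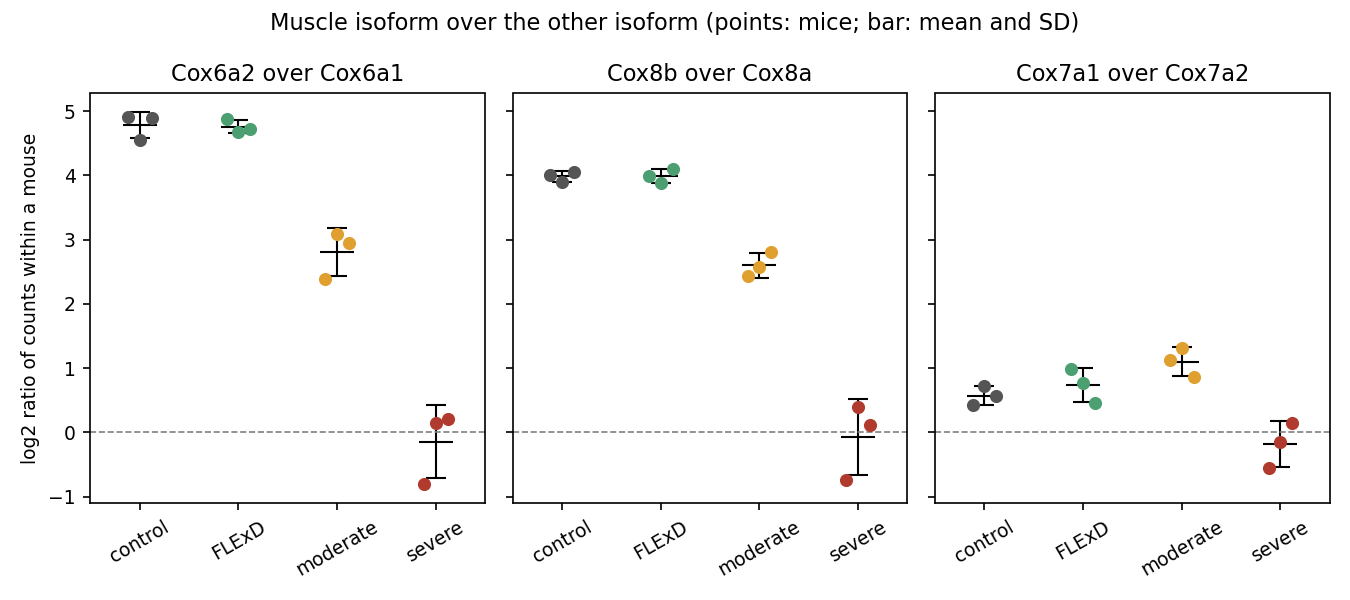
Log2 ratio of the counts of the muscle isoform over the general isoform within each mouse (vertical axis), 3 mice per group, with mean and SD; the dashed line marks equal counts. Severe mice lie around 0 for Cox6a2 over Cox6a1 and for Cox8b over Cox8a, with means of -0.14 and -0.07, against 4.78 and 3.98 in controls.

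Cox7a2l, a related protein that joins complexes III and IV into supercomplexes, was at 84.4, 96.9 and 78.9 CPM in control, 109, 109 and 119 in moderate and 69.4, 77.2 and 83.5 in severe mice. It was not called in either model with TMM (0.37, adjusted p = 0.012, and -0.18, adjusted p = 0.17), and its severe value turned to 1.12 with library size alone. Its TPM was 74.99 in control, 135 in moderate and 152 in severe muscle, and it ranked 73, 62 and 38 of 82 in these groups. Among the rare isoforms, Cox4i2, the lung form that responds to oxygen, was at 0.569 to 1.01 CPM in control and 0.0943 to 0.290 CPM in severe mice and was called lower there (-2.10 ± 0.53, edgeR adjusted p = 0.0027). This call rests on few reads, with counts of 13, 21 and 12 in control and 6, 4 and 12 in severe mice. The log2 ratio of Cox4i1 over Cox4i2 within a mouse overlapped, at 8.91 to 9.30 in control and 9.28 to 10.7 in severe mice. The further drop of Cox4i2 between the models was lost without moderate mouse 1308 or severe mouse 1047 or 1066. Cox6b2, the testis form, was at 0.0518 to 0.237 CPM in control and 0.236 to 0.383 CPM in severe mice and was not called (0.88, adjusted p = 0.11). Its general partner Cox6b1 changed by -0.31 (not called) in moderate and -1.35 in severe muscle.

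Promoter sequence was examined for the isoform pairs, 2 of which (subunits 6a and 8) had members called in opposite directions in the severe model. RefSeq promoters (GRCm38.p6) were found for 68 of the 82 genes, which did not include Cox6a2, and the 250 bases before the annotated start were read. The sequences below are printed 5′ to 3′ on the gene's strand, with each CpG dinucleotide in capitals. Cox8b and Cox7a1 are muscle forms, and Cox8a, Cox7a2 and Cox6a1 are general forms. They lie at chr7:140900447-140900696 (minus strand), chr7:30183921-30184170 (plus), chr19:7217617-7217866 (minus), chr9:79759854-79760103 (minus) and chr5:115348959-115349208 (minus).
Cox8b: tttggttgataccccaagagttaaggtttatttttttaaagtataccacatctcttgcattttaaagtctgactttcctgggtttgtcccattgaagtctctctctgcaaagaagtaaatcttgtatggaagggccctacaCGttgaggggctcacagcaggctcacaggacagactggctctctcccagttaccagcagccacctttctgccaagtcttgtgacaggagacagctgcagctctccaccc
Cox8a: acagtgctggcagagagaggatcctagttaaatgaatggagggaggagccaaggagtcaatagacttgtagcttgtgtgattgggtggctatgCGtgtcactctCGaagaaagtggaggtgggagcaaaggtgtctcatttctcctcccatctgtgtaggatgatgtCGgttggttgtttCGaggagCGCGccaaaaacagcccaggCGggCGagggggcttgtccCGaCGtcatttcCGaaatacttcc
Cox7a1: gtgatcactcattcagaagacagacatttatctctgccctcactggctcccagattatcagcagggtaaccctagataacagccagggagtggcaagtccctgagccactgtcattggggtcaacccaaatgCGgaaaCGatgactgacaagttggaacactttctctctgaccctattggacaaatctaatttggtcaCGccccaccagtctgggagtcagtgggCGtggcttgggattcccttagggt
Cox7a2: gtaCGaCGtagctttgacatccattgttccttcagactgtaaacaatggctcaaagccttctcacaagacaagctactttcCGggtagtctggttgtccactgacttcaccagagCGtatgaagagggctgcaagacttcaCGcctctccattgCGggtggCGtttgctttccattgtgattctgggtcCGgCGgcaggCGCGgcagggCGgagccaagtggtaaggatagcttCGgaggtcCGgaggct
Cox6a1: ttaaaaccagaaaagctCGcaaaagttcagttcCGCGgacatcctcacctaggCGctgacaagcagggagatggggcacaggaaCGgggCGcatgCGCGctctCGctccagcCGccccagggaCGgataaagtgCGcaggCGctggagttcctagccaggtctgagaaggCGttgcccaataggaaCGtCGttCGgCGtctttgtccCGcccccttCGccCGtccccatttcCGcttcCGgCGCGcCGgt
Cox8b had 1 CpG and Cox7a1 had 4, giving ratios of observed to expected CpG of 0.073 and 0.244, ranks 1 and 2 from the lowest of the 68 promoters. Cox8a, Cox7a2 and Cox6a1 had 11, 14 and 26 CpG, with ratios of 0.676, 0.751 and 1.06. The median ratio was 0.76 over the 68 subunit promoters and 0.378 over all 27025 genes with a promoter. Across the 68 genes, the ratio did not follow the severe log2 fold change (Spearman's rho = -0.034 across genes, which are not independent and share the libraries).

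Short motifs of factors known to act on respiratory genes were counted in the same 250 bases on both strands. NRF1 sites, written GCGCANGCG, were present in 13 of 68 subunit promoters (19.1%) against 5.33% of all promoters. ETS sites of the kind bound by GABP, written CCGGAAG, were present in 11 (16.2%) against 7.05%. Cox6a1 held NRF1 matches that began 162, 161 and 117 bases before the start, the first 2 of which overlap on opposite strands, and an ETS match 16 bases before it. The median severe log2 fold change was -1.64 for genes with the NRF1 letters and -1.53 for those without, and -1.35 and -1.55 for the ETS letters. The ERR letters TCAAGGTCA were in 1 promoter (1.47% against 0.366%). The MEF2 letters TAAAAATA and the YY1 letters AAGATGGC were in 0 of 68, against 2.48% and 1.59% of all promoters. The E-box CAGCTG, a form bound by myogenic factors, was in 6 (8.82%) against 12.8%, and Cox8b held 1 that began 19 bases before the start. These are matches of letters and not measured binding. Only the first listed start of each gene was read. The set of all promoters was not matched for base composition, with a median CpG ratio of 0.378 against 0.76 for the subunits. The NRF1 and ETS letters hold CpG, and the MEF2 letters hold neither C nor G. The part of base composition in these shares was not tested.

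In complex V, the catalytic F1 genes Atp5a1 and Atp5b encode the most abundant pair of subunits. Atp5b was at 2216, 2501 and 2069 CPM in control, 1528, 1572 and 1620 in moderate and 664, 873 and 933 in severe mice. It was called lower in both models (-0.52 ± 0.15 and -1.46 ± 0.16, edgeR adjusted p = 0.0099 and 1e-06), with the moderate call lost without control mouse 1246. Atp5a1 changed by -0.58 and -1.53. Atp5e, the epsilon subunit of the F1 stalk, had the lowest severe log2 fold change of the complex, at 279, 336 and 292 CPM in control, 164, 189 and 168 in moderate and 57.7, 73.7 and 84.6 in severe mice. Its log2 fold changes were -0.80 ± 0.14 (edgeR adjusted p = 0.00023) and -2.07 ± 0.14 (edgeR adjusted p = 1.3e-08). The severe log2 fold change nearest 0 was that of Atp5l, the membrane-embedded g subunit, at 79.7, 100 and 77.2 CPM in control, 89.1, 91.5 and 94.4 in moderate and 46.7, 50.5 and 54.1 in severe mice (-0.76 ± 0.10, edgeR adjusted p = 8.3e-06). With library size alone this direction turned to 0.54. Atp5k, the e subunit, had the largest further drop of complex V between the models, by 1.37 on the log2 scale. It was not called in the moderate model (-0.31, adjusted p = 0.13).

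The c ring of ATP synthase is encoded by 3 genes, Atp5g1, Atp5g2 and Atp5g3, whose mature proteins are identical. None was called in the moderate model, at -0.06, -0.16 and -0.33. All 3 were called lower in the severe model, at -1.17, -0.87 and -1.01, and all 3 directions turned positive with library size alone. Atp5g2 was at 59.1, 49.96 and 52.2 CPM in control and 11.9, 39.9 and 36.4 in severe mice, with mouse 1047 far below the others. In FLExD mice it was at 87.6, 70.4 and 69.5 CPM, above all controls, and was not called (0.50). Its severe call (edgeR adjusted p = 0.049) was lost without severe mouse 1047 (-0.49) or without any of the 3 controls (adjusted p = 0.076 to 0.11). Unlike the pairs of complex IV, the log2 ratio of Atp5g1 over Atp5g3 moved little, from 0.30 in control to 0.57 in moderate and 0.12 in severe mice. Atp5s and Atp5sl carry the prefix but are not counted as subunits of the enzyme in current naming. They were called lower in both models, Atp5s at -0.87 and -1.44 and Atp5sl at -0.74 and -1.63, and without them the severe median of complex V was -1.43.

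The rest of the pathway was described by lists of genes. All 13 mRNAs of the mitochondrial genome that encode subunits of the same complexes were called lower in both models, with medians of -0.74 in moderate and -2.30 in severe muscle. With library size alone, 0 were called in moderate and 13 were called lower in severe muscle. Of all genes, 4.51% and 6.42% were called lower on that scale, against 17% and 27.9% with TMM. mt-Co1, the catalytic subunit of complex IV, changed by -2.13 in the severe model, and mt-Nd1 of complex I by -2.51. Within a mouse, the summed nuclear subunits over the summed mitochondrial mRNAs had a log2 ratio of -1.55 to -1.32 in control, -1.25 to -1.03 in moderate and -0.97 to -0.66 in severe mice, without overlap between the models and the controls. The libraries were poly(A)-selected, and mitochondrial mRNAs carry short tails.

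Enzymes of the tricarboxylic acid cycle and pyruvate dehydrogenase had medians close to those of the subunits. Of 16 genes, 9 were called lower in moderate and 16 in severe muscle, with medians of -0.58 and -1.67. Of all genes, 17% and 27.9% were called lower. With library size alone 1 and 6 of the 16 were called lower, against 4.51% and 6.42% of all genes. The moderate median then turned to 0.029. The 16 genes included citrate synthase (Cs, -1.97 in severe). The log2 ratio of summed subunits over these enzymes was 1.82 to 1.87 in control, 1.84 to 1.94 in moderate and 1.91 to 2.003 in severe mice. Among 8 electron carriers and subunits that the name pattern leaves out, 7 were called lower in the severe model with TMM, against 27.9% of all genes. With library size alone 1 was called lower and 2 higher, against 6.42% and 75.4% of all genes. The 7 called lower with TMM included Cyc1, the cytochrome c1 of complex III (-1.48), and Cycs, cytochrome c (-1.63). Ndufab1, the acyl carrier subunit of complex I, was also among them (-1.09, which turned to 0.21 with library size alone). The exception was Atpif1, the inhibitor of ATP synthase hydrolysis, which rose by 0.80 in moderate and 1.27 in severe muscle (edgeR adjusted p = 7.2e-08), from 11.3 to 27.3 CPM, and by 2.58 with library size alone. Of 10 genes of mitochondrial transport and energy transfer tested, 7 were called lower and 1 higher in the severe model with TMM. The shares of all genes were 27.9% and 32.9%. With library size alone 4 were called lower and 3 higher, against 6.42% and 75.4% of all genes. Here too a muscle form and a general form parted. Slc25a4, the adenine nucleotide translocase of heart and muscle, changed by -2.40 (2993 to 566 CPM), and Slc25a5, the general form, rose by 2.28 (26.1 to 127 CPM; edgeR adjusted p = 3.2e-09). Both kept their direction with library size alone, at -1.11 and 3.59.

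Assembly factors help build the complexes and are not part of them. With TMM their medians were closer to 0 than those of the subunits. With library size alone they were farther from 0 than the subunit medians of 0.10 in moderate and -0.24 in severe muscle, and their direction depended on the scale. Of 32 measured, 10 were called lower in moderate and 25 in severe muscle, against 17% and 27.9% of all genes. Their medians were -0.28 and -0.86, with 0 called higher. With library size alone the medians turned to 0.32 and 0.44, and 5 were called lower and 15 higher in the severe model, where 6.42% of all genes were called lower and 75.4% higher on that scale. In the moderate model 1 was called lower and 9 higher on it, against 4.51% and 52.5% of all genes. The largest changes were those of Ndufaf6 (-2.56), Ecsit (-2.40) and Lyrm7 (-2.16), while Sco1, a copper chaperone of complex IV, had a value of 0.26 that was not called. The log2 ratio of summed subunits over summed assembly factors was 4.44 to 4.61 in control and 3.87 to 4.12 in severe mice. Regulators of mitochondrial biogenesis were mixed. Of 16 tested, 8 (50%) were called lower and 1 (6.25%) higher in the severe model, against 27.9% and 32.9% of all genes. Their median of -0.72 turned to 0.58 with library size alone. On that scale 2 were called lower and 9 higher, against 6.42% and 75.4% of all genes. Ppara, a nuclear receptor of fatty acid oxidation, had the largest change (-3.06), and Tfb2m (-1.93) and Esrra (-1.06, which turned to 0.24 with library size alone) were also called lower. Ppargc1a, the coactivator PGC-1 alpha, was not called (-0.40, adjusted p = 0.028), and neither were Nrf1 (0.03), Gabpa (-0.27) and Yy1 (-0.15). Pprc1, a related coactivator, rose by 0.62 (edgeR adjusted p = 0.015).

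The fast-fiber genes had a median of -3.51 in the severe model, with 10 of 10 called lower, also with library size alone. The log2 ratio of summed subunits over summed fast-fiber genes was -3.70 to -2.97 in control, -2.70 to -2.48 in moderate and -1.57 to -1.14 in severe mice. Within a severe mouse the subunits were thus higher relative to these fast-fiber genes than in any control. The summed CPM of the 8 slow-fiber genes was 537 to 2843 in control and 408 to 585 in severe mice. Of these 8 genes, 4 were called lower in the severe model (median -1.54), against 27.9% of all genes. With library size alone 3 were called lower and 1 higher (median -0.23), against 6.42% and 75.4% of all genes. No ratio of the subunits to the slow-fiber genes was taken. Of 3 brown fat markers, Cidea was called higher in the severe model (mean CPM 0.273 in control and 4.82 in severe muscle). Ucp1 was at 0 in all controls and at most 0.0451 CPM in severe mice, and Elovl3 was not called (0.309 and 0.326 CPM). With library size alone both Cidea and Elovl3 were called higher, but so were 75.4% of all genes. Of 4 adipocyte markers, 2 were called lower in the severe model, with a median of -1.75, against 27.9% of all genes. With library size alone 0 were called lower, with a median of -0.45, against 6.42% of all genes.

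All 82 genes had an entry in GENCODE M21 on GRCm38, on 19 chromosomes, with 3 genes on X. Of these, 26 share exon bases with a gene on the opposite strand and 5 with a gene on the same strand. No source used here states that strand was kept in counting, so their reads cannot be separated from those of the neighbor. Cox6a2 (chr7:128205435-128206387, minus strand) overlaps Itgad in this way. Counts were not whole in 1 or more libraries for 42 genes, which happens where the authors' program divides reads that match more than 1 gene. Values for these 42 genes are less certain. Counts of Cox6a2, Cox6a1, Cox8b, Cox8a and Cox7a1 were whole in all 12 libraries.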

How the data were processed

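Gastrocnemius RNA of 12 mice, 3 per group, was measured by poly(A) RNA-seq. Per the study's methods, the authors trimmed single reads, mapped them to a merged mm10 annotation with RSEM 1.2.4, modified to call Bowtie, and then TopHat2 2.0.8b, and deposited expected counts and TPM values per gene and mouse. The deposited expected counts carry no scaling, and the TPM values of the authors have the same total in each library. Groups came from the sample labels, and whether mice were littermates is not given in the sources used here.

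Expected counts were rounded and tested with edgeR 4.0.16 (R 4.3.3; quasi-likelihood, robust, TMM factors, filterByExpr) with all 4 groups fitted together, and p-values were adjusted by Benjamini-Hochberg across 16679 genes. Calls required adjusted p under 0.05 together with a log2 fold change of at least 0.5 in size. Errors are SE for fold changes and SD for levels. CPM values use the TMM scale. Fold changes from TPM are on the log2(TPM + 1) scale. The procedure was tested on simulated data. DESeq2 1.42.0, limma 3.58.1, other scalings, filters and fold thresholds, and leaving out each mouse were the alternatives. Ratios, shares and complexes were described without a test.

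Named genes were all of complex II, the isoform groups, core or catalytic subunits, the extremes of each complex and members called against the direction of their complex; core subunits beyond these, and genes of other lists, were added after their values were seen. The members and lists were chosen with earlier results of these data known. The values of 1 gene of this naming rule are not reported here. The DUX4 transgene was not analysed here. Positions are from GENCODE M21 (GRCm38) and promoters from RefSeq (GRCm38.p6). Figures were drawn with matplotlib 3.10.9.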

Additional observations from a re-analysis of the deposited data

How the results depend on the processing

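The severe calls of Cox6a2, Cox8b, Cox6a1 and Cox8a kept their direction under every alternative run, while the counts of calls followed the scale. In both models the subunit median also stayed below that of all genes. Under a change of count scale alone that position is nearly fixed in advance, so those settings do not test it. Where a value moved, the cause was not tested beyond the fewer genes or samples an alternative uses. No paired analysis was possible because the groups share no replicate numbers. Values of log2 fold change and counts of calls follow by setting. With library size alone, 52.5% of all genes were called higher in moderate and 75.4% in severe muscle. On that scale 4.51% and 6.42% were called lower. For the other settings no share of all genes is given here, so their counts of subunits called stand without that background. With library size alone, values that moved or turned were in moderate, subunits called lower 1, subunits called higher 13, all subunits 0.10, complex I 0.0344, complex II -0.13, complex III 0.19, complex IV 0.37, complex V 0.20, Sdhc 0.0571, Sdhd 0.11, Cox4i1 0.18, Cox4i2 0.10, Cox6b1 0.30, Cox7a2 0.53, Cox7b 0.55, Ndufa4 0.16, Atp5g1 0.55, Atp5g2 0.45, Atp5g3 0.28, Uqcrfs1 0.0748, Cox5a 0.05, Atp5a1 0.0222, Atp5b 0.0824, Ndufb2 0.0393, Atp5k 0.29. In severe, subunits called lower 21, subunits called higher 6, all subunits -0.24, complex I -0.37, complex II -0.56, complex III -0.18, complex IV -0.0247, complex V -0.14, Cox7a2 0.29, Cox7a2l 1.12, Cox7b 0.024, Ndufa4l2 0.37, Atp5g1 0.13, Atp5g2 0.41, Atp5g3 0.29, Ndufb11 0.54, Uqcr10 0.45, Atp5l 0.54. In severe against moderate, subunits called lower 23, all subunits -0.36, Cox7a2l 0.15, Ndufa4l2 0.65, Atp5g3 0.0135, Atp5s 0.12. With library size without mitochondrial-genome genes, values that moved or turned were in moderate, subunits called lower 2, subunits called higher 11, all subunits 0.0562, complex I -0.007, complex II -0.18, complex III 0.14, complex IV 0.32, complex V 0.16, Sdhc 0.0086, Sdhd 0.0594, Cox4i1 0.14, Cox4i2 0.0577, Cox6b1 0.25, Cox7a2 0.48, Cox7b 0.50, Ndufa4 0.12, Atp5g1 0.50, Atp5g2 0.42, Atp5g3 0.23, Uqcrfs1 0.0262, Cox5a 0.0035, Atp5b 0.0367, Atp5k 0.25. In severe, subunits called lower 34, subunits called higher 4, all subunits -0.43, complex I -0.57, complex II -0.76, complex III -0.38, complex IV -0.22, complex V -0.34, Cox7a2 0.0903, Cox7a2l 0.93, Ndufa4l2 0.18, Atp5g2 0.23, Atp5g3 0.0926, Ndufb11 0.34, Uqcr10 0.26, Atp5l 0.34. In severe against moderate, subunits called lower 42, all subunits -0.51, Ndufa4l2 0.50. With limma on log2(TPM + 1), values that moved or turned were in moderate, subunits called lower 3, subunits called higher 10, all subunits -0.025, complex I -0.0942, complex II -0.27, complex III 0.0752, complex IV 0.18, complex V 0.0786, Cox4i1 0.0714, Cox6b1 0.19, Cox7a2 0.41, Cox7b 0.43, Ndufa4 0.0451, Atp5g1 0.44, Atp5g2 0.32, Atp5g3 0.17, Atp5k 0.17. In severe, subunits called lower 26, subunits called higher 4, all subunits -0.34, complex I -0.47, complex II -0.62, complex III -0.28, complex IV -0.12, complex V -0.24, Cox7a2 0.19, Cox7a2l 1.01, Ndufa4l2 0.25, Atp5g1 0.0199, Atp5g2 0.16, Atp5g3 0.20, Ndufb11 0.41, Uqcr10 0.34, Atp5l 0.46. In severe against moderate, subunits called lower 21, all subunits -0.34, Cox7a2l 0.17, Ndufa4l2 0.57, Atp5g3 0.0324, Atp5s 0.12. With log2 fold change of at least 1, values that moved or turned were in moderate, subunits called lower 3, subunits called higher 0. In severe, subunits called higher 1. In severe against moderate, subunits called lower 50, subunits called higher 0. With median-of-ratios factors, values that moved or turned were in moderate, subunits called higher 0. With DESeq2, values that moved or turned were in moderate, subunits called higher 0. With no fold threshold, values that moved or turned were in moderate, subunits called higher 3. With at least 10 counts in every sample, values that moved or turned were in severe against moderate, Ndufa4l2 0.0146. With each mouse left out in turn the ranges were subunits called higher (moderate) 0 to 2, Cox6b2 (moderate) -0.15 to 0.61, Cox7b (moderate) -0.16 to 0.0178, Atp5g1 (moderate) -0.16 to 0.0613, Atp5l (moderate) -0.0026 to 0.19, subunits called higher (severe against moderate) 1 to 2, Ndufa4l2 (severe against moderate) -0.23 to 0.33. The moderate count of 31 lower calls came without control mouse 1246.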
